A study of Mus musculus with 2 samples.

Results

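A set of 10 genes that maintain telomeres was followed here on the arrays of gastric organoids: *Tert*, *Terf1*, *Terf2*, *Pot1a*, *Pot1b*, *Tinf2*, *Acd*, *Dkc1*, *Rtel1* and *Nhp2*. They were chosen by name, and every probe set annotated to exactly 1 of these symbols was kept, which gave 10 probe sets for the 10 genes among 19505 genes in all. Organoids had been established from stomachs of aged C57BL/6 mice (more than 18 months) and of young C57BL/6 mice (2 to 4 months), without transgene or deletion. The general culture method of the study used Matrigel and a medium with EGF, Noggin, FGF10, Wnt3a, R-Spondin1, Chir99021, valproic acid, SB431542 and Y-27632. The medium is not stated separately for the cultures on the arrays. Total RNA of each culture was hybridized to 1 Clariom S array per group. The sources used here do not give how many animals or which passage stood behind each array, and age cannot be told apart from any other difference between these 2 cultures.

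Telomeres are the repeats of TTAGGG that cap chromosome ends, and a complex named shelterin keeps them from being read as broken DNA. In shelterin, TRF1 (*Terf1*) and TRF2 (*Terf2*) bind the duplex repeats, RAP1 (*Terf2ip*) rides on TRF2, TIN2 (*Tinf2*) bridges the complex, and TPP1 (*Acd*) ties it to POT1, which covers the unpaired overhang. Telomerase adds repeats to the overhang with its reverse transcriptase TERT and an RNA template, which is held by the H/ACA proteins dyskerin (*Dkc1*), NHP2, NOP10 and GAR1. The helicase RTEL1 opens the loops and folded DNA of telomeres so that they can be copied. In renewing epithelia such as the gut lining, *Tert* is low and is linked to stem and progenitor cells.

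The telomere genes did not share a direction. In aged organoids, the shelterin genes *Pot1a* and *Terf1* had a signal more than 2-fold higher than in young organoids, *Tinf2*, *Rtel1* and *Pot1b* were higher by less than that, and *Terf2*, *Acd*, *Nhp2* and *Dkc1* were lower by less than 2-fold. *Tert*, the catalytic subunit, lay under background in aged organoids and barely over it in young organoids. All values are log signals of the authors' RMA normalization, with base 2 assumed, and differences are aged minus young. With 1 array per group there was no replicate error and no test, and in RNA of whole cultures fewer cells of a type and less RNA per cell cannot be told apart. Each difference was instead set beside those of all genes above background. Receptor genes of smell, which organoids of the stomach should not express, served as background (1410 olfactory or vomeronasal genes), and their 95th percentile was taken as the reference, 5.54 on the aged array and 5.36 on the young array.

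Of the 10 genes, 2 were at least 2-fold higher in aged organoids, against 11.3% of the 11557 genes above the reference on at least 1 array. At least 2-fold lower was 1, against 11.8% of those genes. This was *Tert*, counted by its measured difference, although its background bound is only 1.15-fold. Together 3 of 10 were that far apart, against 23.2%, so at 10 genes the count was close to the background. The median difference of the 10 genes was 0.08, and that of all genes above the reference was 0.0021. All 10 differences also lay inside the central 95% of the 500 genes nearest in mean signal. For *Tert* this cannot show that its difference is ordinary, because its mean signal is under both references. Genes that dim entered the comparison only where 1 array lay above its reference.

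**Figure D1:**
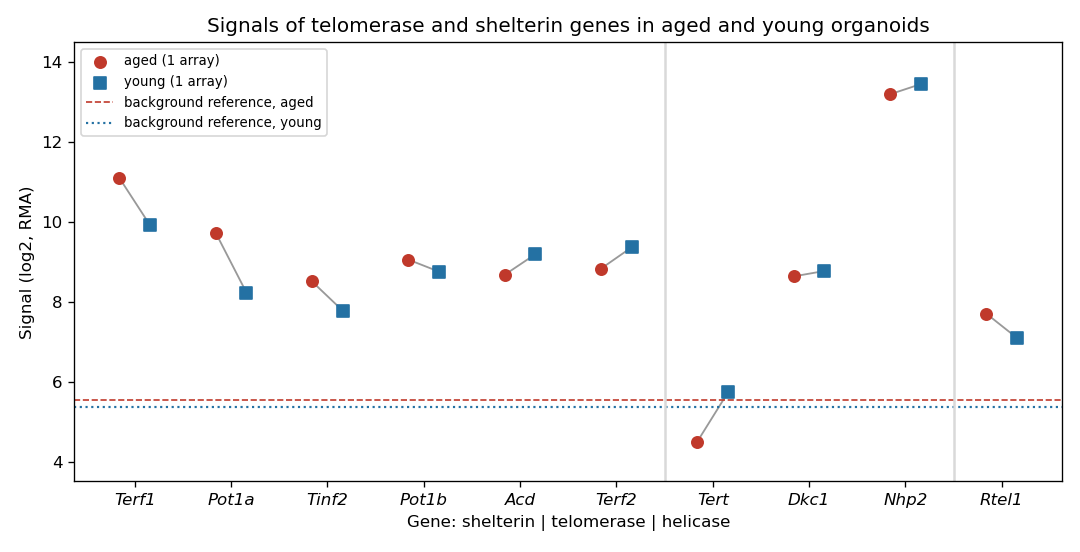
Log2 signals of the 10 genes on the aged array (red circles) and the young array (blue squares), 1 array per group, ordered by complex, with the background reference of each array as a dashed or dotted line. *Terf1*, *Pot1a* and *Tinf2* were higher in aged organoids, *Acd* and *Terf2* lower, and *Tert* lay under the reference on the aged array.

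The organoids carried the RNA of an epithelium on both arrays. All 13 measured epithelial markers were above the reference, with *Epcam*, which encodes an adhesion molecule of epithelial cells, at 14.74 on the aged array and 12.87 on the young array. They did not share a direction, with differences of 1.86 for *Epcam* and -1.36 for *Cldn4*. Above the reference on at least 1 array were 2 of 12 leukocyte markers, *Cd14* (7.75 aged and 9.65 young) and *Cd4* (7.76 aged and 7.52 young). So were 2 of 11 fibroblast markers, *Col1a1* (6.15 aged and 5.92 young) and *Lum* (5.65 aged and 5.28 young). Of 8 endothelial markers 1 was, *Esam* (6.35 aged and 6.57 young). The defining leukocyte marker *Ptprc* was under the reference on both arrays, at 5.22 (aged) and 5.18 (young), as was the endothelial marker *Pecam1* (4.13 aged and 3.86 young). Markers of dividing cells differed strongly. Of 13 measured, 11 were at least 2-fold higher in aged organoids, beside 11.3% of all genes above the reference. Their median difference was 2.70, and their part in the differences of the telomere genes was not tested.

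POT1 is encoded by a single gene in humans and by the paralogs *Pot1a* and *Pot1b* in mice. POT1A holds back the ATR damage response at the overhang, and POT1B limits how far the end is resected. *Pot1a* had a signal of 9.73 on the aged array and of 8.23 on the young array. The difference of 1.503 is 2.83-fold, and 94.3% of the genes above the reference had a lower one, with negative differences counted as lower. *Pot1b* was at 9.06 in aged and at 8.76 in young organoids, a difference of 0.30 or 1.23-fold. The paralogs thus differed by 1.20 in how far apart the arrays were. Whether probes of either paralog also bind RNA of the other was not tested.

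*Pot1a* lies on chromosome 6, whose genes were higher in aged organoids as a group. The median difference of 552 genes on it was 0.68, while the medians of the other autosomes except 12, and of X, ran between -0.10 and 0.03. The 20 nearest genes above the reference, 10 on each side of *Pot1a*, had a median of 0.69, and 16 of them were higher in aged organoids. Less the median of its chromosome, *Pot1a* differed by 0.82, which is under 2-fold. *Pot1b*, on chromosome 17, lay at 0.36 after the same subtraction. The part of the chromosome in the difference of *Pot1a* was not tested.

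The sequences upstream of these paralogs are shown because the genes differed in size of change, and that of *Tinf2* because it was also higher and shares a motif with each paralog. Each is the RefSeq promoter of build GRCm38.p6, from 250 bases before to 50 bases after the transcription start, 5′ to 3′ on the strand of the gene. *Pot1a* is at chr6:25809169-25809468, - strand, *Pot1b* at chr17:55712587-55712886, - strand, and *Tinf2* at chr14:55681768-55682067, - strand. Capitals mark exact matches, on either strand, to 6 motifs: the E-box CACGTG, the GC box CCGCCC, the cyclic AMP response element TGACGTCA, the NRF1 core CGCATGCG, the ETS motif CCGGAAG and the CCAAT box CCAAT.
Pot1a: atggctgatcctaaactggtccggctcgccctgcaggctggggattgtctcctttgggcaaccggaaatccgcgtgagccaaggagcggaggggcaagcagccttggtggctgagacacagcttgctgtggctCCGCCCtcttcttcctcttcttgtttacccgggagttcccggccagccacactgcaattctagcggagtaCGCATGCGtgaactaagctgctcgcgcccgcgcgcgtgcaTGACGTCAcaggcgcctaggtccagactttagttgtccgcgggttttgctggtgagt
Pot1b: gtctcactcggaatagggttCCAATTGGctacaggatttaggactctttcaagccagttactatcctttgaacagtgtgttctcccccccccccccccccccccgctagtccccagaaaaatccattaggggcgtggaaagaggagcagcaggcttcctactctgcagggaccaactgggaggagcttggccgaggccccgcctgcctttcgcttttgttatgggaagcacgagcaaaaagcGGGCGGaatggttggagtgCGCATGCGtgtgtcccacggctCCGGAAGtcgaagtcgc
Tinf2: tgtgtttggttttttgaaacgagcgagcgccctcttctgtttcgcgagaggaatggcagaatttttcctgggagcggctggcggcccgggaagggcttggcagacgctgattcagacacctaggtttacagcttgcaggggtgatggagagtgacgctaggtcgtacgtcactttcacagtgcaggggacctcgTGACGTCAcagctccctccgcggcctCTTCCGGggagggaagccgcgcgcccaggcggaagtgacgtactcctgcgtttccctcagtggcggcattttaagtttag
The NRF1 core stands in both POT1 genes, from base -47 to -40 in *Pot1a* and from base 12 to 19 in *Pot1b*, where the start is base 1 and the base before it -1. It was found in 1.91% of 27025 promoters of the same length. The cyclic AMP response element stands in *Pot1a* (-7 to 1) and in *Tinf2* (-56 to -49) and in 1.88% of all promoters, and not in the window of *Pot1b*. The ETS motif stands in *Tinf2* (-30 to -24) and in *Pot1b* (34 to 40), not in the window of *Pot1a*, and also in *Rtel1* and *Nhp2*. It is in 9.12% of all promoters. A GC box, found in 35.9% of promoters, is in 6 of the 9 telomere genes with a promoter, *Pot1a* and *Pot1b* among them. In *Pot1b* 2 matches to the CCAAT box overlap on opposite strands. Because *Tinf2* was printed for the motifs it shares, this sharing is no result about the genes that were higher. *Rtel1*, also higher, lacks the cyclic AMP response element in its window, and *Terf1* had no promoter entry. These are matches of letters, and binding of any factor was not measured.

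TRF1, encoded by *Terf1*, binds the duplex repeats and helps replication forks pass through them. *Terf1* had a signal of 11.11 on the aged array, against 9.92 on the young array. It was 2.28-fold higher in aged organoids (difference 1.19), and 91.3% of the genes above the reference had a lower difference. Its chromosome, 1, had a median of -0.01, and its 20 neighbors one of 0.24. Less the chromosome median, *Terf1* differed by 1.20.

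TRF2, the other protein on the duplex repeats, folds the end into a loop and holds back the ATM damage response. *Terf2* was at 8.83 in aged organoids and at 9.37 in young organoids, a difference of -0.54. The gap between the differences of *Terf1* and *Terf2* was 1.73. *Terf2ip*, which encodes RAP1, the partner of TRF2, was at 8.71 (aged) and 8.96 (young), and so was lower by 0.25. RAP1 is the shelterin subunit outside the 10 genes.

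TIN2 joins TRF1 and TRF2 to TPP1. *Tinf2* had a signal of 8.51 on the aged array and 7.78 on the young array, which is 1.66-fold higher in aged organoids (difference 0.74). Its 20 neighbors on chromosome 14 had a median of -0.65, and only 5 of them were higher in aged organoids, so *Tinf2* differed in direction from most genes around it. TPP1 brings telomerase to the end and carries POT1. *Acd*, its gene, was at 8.68 (aged) and 9.20 (young), a difference of -0.52. *Acd*, *Terf2* and *Terf2ip*, the shelterin genes that were lower, all lie on chromosome 8, whose median was -0.10, and less that median they remained lower, by 0.42, 0.44 and 0.15. Over the 7 shelterin genes the median difference was 0.30, where 2 genes were higher by 2-fold or more and no gene was lower by as much, beside 11.3% and 11.8% of all genes above the reference.

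**Figure D2:**
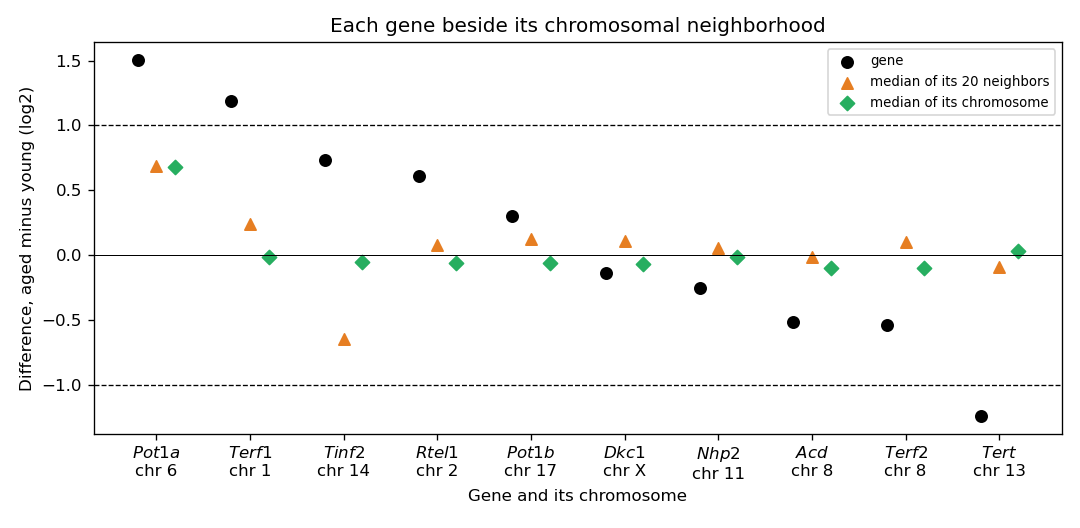
Difference between the aged and the young array (log2) for each of the 10 genes (black circles), the median of its 20 nearest genes above the reference (orange triangles) and the median of its chromosome (green diamonds), with dashed lines at 2-fold. *Pot1a* stands over a raised chromosome median of 0.68, *Terf1* over one of -0.01, and *Tinf2* above neighbors at -0.65.

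TERT is the reverse transcriptase of telomerase and its limiting subunit in many tissues. *Tert* had a signal of 4.50 on the aged array, 1.04 under the reference, and of 5.74 on the young array, 0.38 over it. The measured difference was -1.24. Since the aged value is at background, the reference was put in its place, which gave a bound of 1.15-fold (0.20). This bound is less than 0.51, the SD of the measured differences of receptor genes. The measured difference of *Tert* is larger in size than that SD, but its aged value is at background. With 1 array per group, a lower level of *Tert* in aged organoids was thus not established. On the young array 33 of the 1410 receptor genes (2.34%) were as bright as *Tert* or brighter, and on the aged array 432 (30.6%). Its RNA was thus hardly detectable on the young array and not detectable on the aged array. *Terc*, the RNA template, was not analysed here.

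The *Tert* promoter is shown because factors that act on it are described next. It lies at chr13:73626661-73626960, + strand (GRCm38.p6), and capitals mark the same 6 motifs.
Tert: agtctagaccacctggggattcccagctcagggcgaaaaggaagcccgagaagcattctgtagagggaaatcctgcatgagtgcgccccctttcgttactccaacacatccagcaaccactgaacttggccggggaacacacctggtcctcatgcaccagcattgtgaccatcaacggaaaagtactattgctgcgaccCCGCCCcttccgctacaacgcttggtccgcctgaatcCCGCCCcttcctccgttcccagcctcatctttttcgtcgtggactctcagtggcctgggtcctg
A GC box, the site class of SP1, stands at bases -51 to -46 and at -14 to -9. The E-box CACGTG, the site of MYC and MAX, which 7.24% of all promoters hold, is not among the letters of this window, nor is any of the other motifs.

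Of 13 factors known to act at the *Tert* promoter, mostly from human work, 11 were measured. *Myc*, an activator of *TERT* in human cells, was at 14.31 on the aged array and at 16.15 on the young array, a difference of -1.83. *Mxd1*, which competes for MAX and represses, was lower too, at 6.94 (aged) and 8.23 (young), although it lies on chromosome 6. *Sp1* was at 13.34 (aged) and 13.40 (young), and *Max* at 10.86 (aged) and 11.15 (young). Of the 10 above the reference, 0 were at least 2-fold higher and 2 at least 2-fold lower, and their median was -0.17. Over all genes above the reference the shares were 11.3% and 11.8%. The factors did not share a direction. By measured difference *E2f1* (0.87), *Gabpa* (0.86), *Klf4* (0.68) and *Men1* (0.47) were higher, and *Mycn* (-0.84) and *Ets1* (-0.45) were lower. *E2f1*, *Mycn* and *Ets1* were each under the reference on 1 array.

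Dyskerin and NHP2 belong to telomerase and, in far larger amounts, to the H/ACA particles that guide pseudouridylation of ribosomal RNA. *Dkc1* had a signal of 8.64 in aged and 8.77 in young organoids, and *Nhp2* of 13.20 in aged and 13.45 in young organoids. Their differences of -0.14 and -0.26 were small beside the spread of genes of like signal, of which the central 95% ran from -2.96 to 2.30 around *Dkc1* and from -2.41 to 2.51 around *Nhp2*. *Nop10* was at 15.18 (aged) and 15.63 (young), and *Gar1*, whose protein completes the mature particle, at 12.16 (aged) and 11.48 (young). The 4 core genes thus did not share a direction, with *Gar1* higher by 0.68 and *Nop10* lower by 0.45. The assembly factors were *Naf1* (10.77 aged and 10.46 young) and *Shq1* (11.43 aged and 11.15 young, on chromosome 6). With them the 6 genes had a median of 0.07. None was 2-fold apart, beside 23.2% of all genes above the reference.

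Other genes that build or trim telomerase were also less than 2-fold apart. Among 13 genes of the enzyme and its assembly, *Tert* alone had a measured difference of 2-fold or more, with its bound of 1.15-fold. The median of the 13 was -0.14, and 23.2% of all genes above the reference were at least 2-fold apart. *Wrap53*, whose protein takes telomerase to Cajal bodies, was at 7.48 (aged) and 7.47 (young). *Parn*, which trims the tail of the RNA template, was higher by 0.48, and *Nvl*, an ATPase of ribosome and telomerase assembly, was lower by 0.73. The comparable C/D box and nucleolar proteins differed by 0.34 at the median of 9 genes. Of these 1 was at least 2-fold higher, beside 11.3% of all genes above the reference. This was *Polr1a*, which encodes a subunit of RNA polymerase I, with a difference of 1.06. It lies on chromosome 6, whose median was 0.68, and the part of the chromosome was not tested.

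RTEL1 is a helicase of replicating telomeres. *Rtel1* had a signal of 7.71 on the aged array, against 7.09 on the young array, which is 1.53-fold higher in aged organoids (difference 0.61). The neighbors of *Rtel1* on chromosome 2 had a median of 0.08. Among 13 helicases and nucleases of telomeres, which include *Rtel1*, 11 were above the reference, 3 were higher by 2-fold or more, and no gene was lower by as much, beside 11.3% and 11.8% of all genes above the reference. The 3 were the RecQ helicase *Blm* (9.23 aged and 6.76 young, a difference of 2.47), the nuclease *Exo1* (7.86 aged and 6.21 young) and the flap nuclease *Fen1* (8.75 aged and 7.49 young). All of them also serve DNA replication and repair along whole chromosomes, and the part of the proliferation markers, with their median of 2.70, was not tested. Of the other RecQ helicases in the list, *Wrn* was higher by 0.66, and *Recql4* was under the reference on both arrays.

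The CST complex (CTC1, STN1 and TEN1) binds the overhang after telomerase and calls in DNA polymerase alpha with its primase to fill the other strand. Its genes went apart. *Ctc1* was lower in aged organoids by 1.04 (5.72 aged and 6.76 young), *Ten1* was higher by 1.23 (7.19 aged and 5.96 young), and *Stn1* was at 8.16 (aged) and 8.11 (young). Of the polymerase subunits, *Prim1* was higher by 2.62 (13.29 aged and 10.68 young), *Pola2* by 0.84 and *Pola1* by 0.81, while *Prim2* differed by -0.13. In this list of 7 genes 2 were at least 2-fold higher and 1 at least 2-fold lower. Over all genes above the reference the shares were 11.3% and 11.8%. The part of the proliferation markers in these differences was not tested. Of the tankyrases and other telomere-binding proteins, none of the 8 genes above the reference was 2-fold apart, beside 23.2% of all such genes. The TRF1 modifier *Tnks* was at 10.24 (aged) and 10.33 (young), and *Tnks2* at 13.97 (aged) and 14.10 (young).

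**Figure D3:**
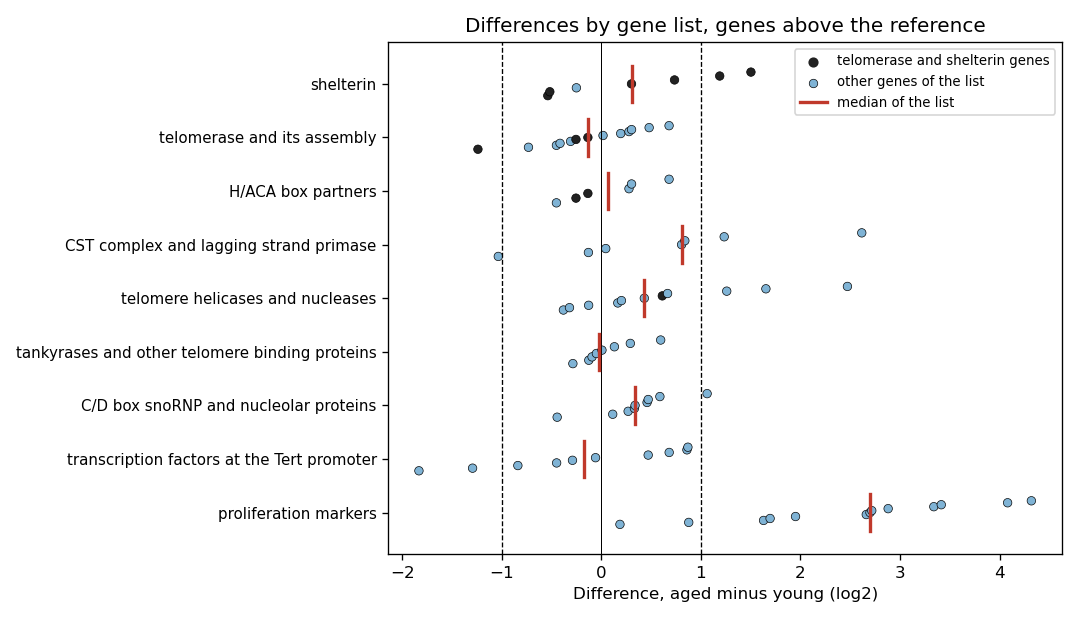
Differences between the aged and the young array (log2) for the genes of each list that were above the reference, with the 10 genes in black, other genes in blue and the list median as a red bar; dashed lines mark 2-fold. Medians ran from -0.17 for factors at the *Tert* promoter to 0.81 for CST and primase genes, against 2.70 for proliferation markers.

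Over the shelterin, telomerase, CST, helicase, tankyrase and meiotic lists together, 48 of 54 genes were above the reference. Of these 7 (14.6%) were at least 2-fold higher and 2 (4.17%) were lower by as much, and the median was 0.15, beside the shares of all genes given above. The 7 were *Pot1a*, *Terf1*, *Ten1*, *Prim1*, *Blm*, *Exo1* and *Fen1*, and the 2 were *Tert* and *Ctc1*. *Tert* is counted there by its measured difference, and with bounds required to reach 2-fold *Ctc1* was the 1 gene lower by as much.

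**Figure D4:**
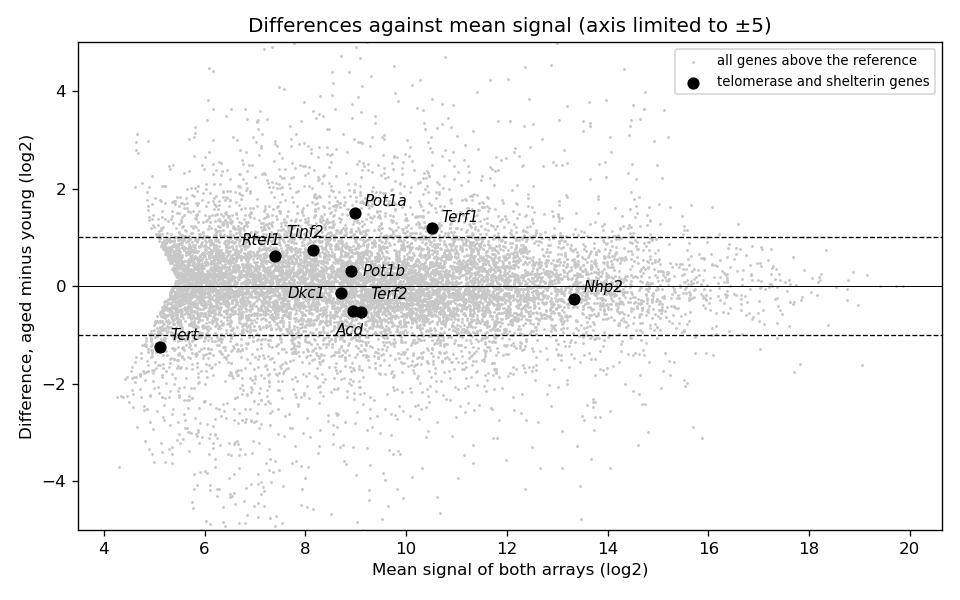
Difference between the aged and the young array against the mean signal of both (log2), for the 11557 genes above the reference (gray) and the 10 telomere genes (black); dashed lines mark 2-fold, and 104 genes beyond the axis are not drawn. *Pot1a* and *Terf1* lay above the upper line, *Tert* below the lower one at the dim end.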

How the data were processed

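RNA of gastric organoids was measured on 1 Clariom S mouse array for aged and 1 for young organoids. The authors deposited a log signal for each probe set, summarized with RMA in Affymetrix Power Tools, per the submitters' processing notes, which give no versions. The base of the deposited values is not stated, and they were taken as log2, on which every fold rests. Signals of the 22206 probe sets ran from 2.03 to 19.9 on the aged array and from 2.12 to 19.9 on the young array, with medians of 5.92 (aged) and 5.96 (young).

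No further normalization was applied. Probe sets annotated to 1 gene symbol (19572) were kept, 2634 with none listed were left out, and several probe sets of a gene (55 genes) were averaged, which gave 19505 genes. Each of the 10 telomere genes had 1 probe set. Signals of different genes were set against each other only for the receptor background and the genes nearest in mean signal. Probes differ in affinity, which limits both. Genes under the reference on both arrays have no fold, and a gene under it on 1 array has a bound computed from it. The SD of the differences of receptor genes was 0.51, a measure of precision for dim genes. Bright genes have no such measure here. The number of arrays limits the precision, and no test was run.

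Chromosomes were read from probe set identifiers, and gene order and promoters from RefSeq (GRCm38.p6), which held a promoter for 9 of the 10 genes and none for *Terf1*. The first of 2 entries was used for *Pot1b* and *Terf2*. Every one of the 10 genes is named, with the genes of each list at least 2-fold apart and those that complete a complex. Other genes named were chosen after their values were seen. The genes and lists were chosen with earlier results of these data known. The alternatives tried were other scalings, the brightest probe set, other reference percentiles and folds, bounds, the mean and subtraction of chromosome medians. On simulated arrays the calls were tested only for changes above 2-fold in bright genes, and the bounds only loosely. Chromosome medians, neighbors and motifs were not tested there. Python 3.11.15, numpy 2.4.6, pandas 2.3.3 and matplotlib 3.10.9 were used.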

Additional observations from a re-analysis of the deposited data

How the results depend on the processing

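Scaling to the median of all probe sets or of the receptor genes shifts every gene by the same amount. Under these scalings and quantile normalization, the largest move of any of the 10 differences was 0.0813. The choice of the brightest probe set could move none of them, since each gene has 1 probe set. Subtraction of the chromosome median took *Pot1a* under 2-fold (0.82), and this applied to no other of the 3 genes at least 2-fold apart. Their number was 3 under the scalings, 5 at a threshold of 1.5-fold (with *Tinf2* and *Rtel1*, against 43.7% of all genes above the reference) and 0 at 3-fold (against 11.5%). It was 2, without *Tert*, with the reference at the 99th percentile (against 24.4%) or with bounds required to reach 2-fold (against 20.9%). Less the chromosome medians it was 2, without *Pot1a* (against 22.3%). The last pair of alternatives, on bounds and on chromosome medians for the count, was added after seeing the data. The median difference of the 10 genes ran from 0.0024 to 0.13 under the scalings, and their mean was 0.17. No paired analysis was possible because each group has 1 array. For *Tert*, signal near background limits what can be said.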

Other observations

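Germ cells use a further set of proteins to tie telomeres to the nuclear envelope in meiosis. *Terb2*, *Majin* and *Spdya* of this set were under the reference on both arrays. *Terb1* was at 4.52 on the aged array and at 5.49 on the young array, where it was just above the reference. *Sun1*, which encodes an envelope protein that somatic cells also use, was at 7.52 (aged) and 6.88 (young). Of 9 germ cell markers 7 were under the reference on both arrays. The exceptions were *Sycp3*, a component of the synaptonemal complex, at 8.34 (aged) and 7.69 (young), and *Zbtb16*, a transcription factor also active in other tissues, at 7.85 (aged) and 5.83 (young).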
